A study of Mus musculus with 8 samples.

Results

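Accessible chromatin was described at the genes of 10 transcription factors of the endocrine pancreas, Nkx2-2, Pdx1, Nkx6-1, Neurod1, Pax6, Isl1, Foxa2, Rfx6, Insm1 and Myt1, out of 21883 protein-coding genes on chromosomes 1 to 19, X and Y. For each of these named genes, every accessible region (peak) that touched the gene body or the 25 kb on either side of it on the GRCm38 map was collected. The rule used no measured value. This gave 69 of the 100099 peaks found with the empty vector (the control list) and 71 of the 128538 found with Klf4. The data are ATAC-seq of MIN6 cells, an established mouse insulinoma line with a wild-type genotype label that serves as a model of the beta cell. In this assay a transposase cuts and tags open DNA, and the tagged fragments pile up over accessible stretches. The control libraries received pcDNA 3 without an insert and the others received pGloMyc-Klf4, a plasmid for Klf4, both by lipid transfection for 48 hours. The plasmids carry different names, so a difference between the lists cannot be assigned to Klf4 apart from the rest of the plasmid. The labels list 4 libraries for each plasmid. Beside an ATAC-seq kit they also name a library kit made for mRNA-seq, and the part it had in these libraries is not given in the sources used here. The deposited lists merge these libraries, 1 list per plasmid, so no spread between libraries can be given, no test between plasmids was made, and read depth is unknown. In such bulk samples, a region open in fewer cells and one less open in every cell cannot be told apart.

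These factors act as a network that makes and keeps islet cells. Pdx1 and Nkx6-1 are homeodomain proteins of the early pancreas that stay on in beta cells, and Nkx2-2 is a homeodomain protein needed for several islet lineages. Neurod1 is a basic helix-loop-helix factor acting after the endocrine progenitor stage. Pax6, a paired domain factor, and Isl1, a LIM homeodomain factor, serve hormone-producing cells of several types. Foxa2 is a forkhead factor able to bind closed chromatin, Rfx6 is a winged helix factor, and Insm1 and Myt1 are zinc finger factors of neuroendocrine cells. Klf4 is a zinc finger factor of the KLF family, whose DNA sites are rich in G and C and often read CACCC.

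Promoter sequences of the RefSeq table (GRCm38.p6) were read for the listed starts. The 250 bases before a start are shown for Nkx2-2, named beside Klf4 in the title of the series, for Pdx1, for Nkx6-1, where covered length differed most, and for both listed Pax6 starts, since the downstream one was covered by a peak in 1 list only. Capitals mark CACCC or its reverse complement GGGTG, and each sequence runs 5′ to 3′ on the strand of the gene.
Nkx2-2, chr2:147186403-147186652, minus strand: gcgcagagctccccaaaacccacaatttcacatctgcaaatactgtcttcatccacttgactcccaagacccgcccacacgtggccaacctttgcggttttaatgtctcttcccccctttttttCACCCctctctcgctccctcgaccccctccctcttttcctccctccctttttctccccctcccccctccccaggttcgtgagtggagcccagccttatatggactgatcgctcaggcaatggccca
Pdx1, chr5:147269847-147270096, plus strand: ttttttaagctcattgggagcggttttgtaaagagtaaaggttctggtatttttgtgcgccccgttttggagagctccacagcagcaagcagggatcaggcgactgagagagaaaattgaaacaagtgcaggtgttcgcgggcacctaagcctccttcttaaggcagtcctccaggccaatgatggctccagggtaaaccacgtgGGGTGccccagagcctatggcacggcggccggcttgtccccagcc
Nkx6-1, chr5:101664712-101664961, minus strand: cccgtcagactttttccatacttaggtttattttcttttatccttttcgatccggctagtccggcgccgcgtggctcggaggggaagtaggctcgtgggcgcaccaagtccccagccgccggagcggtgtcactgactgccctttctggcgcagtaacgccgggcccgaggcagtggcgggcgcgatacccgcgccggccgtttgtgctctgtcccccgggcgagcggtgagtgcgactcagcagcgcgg
Pax6 start 1, chr2:105668646-105668895, plus strand: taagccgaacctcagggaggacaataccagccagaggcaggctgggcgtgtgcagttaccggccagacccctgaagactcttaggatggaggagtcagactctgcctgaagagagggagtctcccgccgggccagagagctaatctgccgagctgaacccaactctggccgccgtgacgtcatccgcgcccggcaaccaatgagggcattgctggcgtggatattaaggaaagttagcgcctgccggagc
Pax6 start 2, chr2:105682213-105682462, plus strand: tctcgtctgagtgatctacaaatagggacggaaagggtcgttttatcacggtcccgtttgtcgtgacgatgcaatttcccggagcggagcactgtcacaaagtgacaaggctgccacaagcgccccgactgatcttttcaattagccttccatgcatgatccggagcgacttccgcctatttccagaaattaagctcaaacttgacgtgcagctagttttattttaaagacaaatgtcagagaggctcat
The Nkx2-2 and Pdx1 stretches each hold 1 such match, and the Nkx6-1 and both Pax6 stretches hold 0.

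Starts were found in that table for 9 of the 10 genes, 14 starts in all, and Insm1 was not matched. Over the 300 bases around a start (250 before and 50 after), CACCC on either strand was present at 9 of 14 member starts, 64.3%, and at 59.5% of the 21262 starts of protein-coding genes. The KLF-type letters GGGNGNGG on either strand, which can overlap GGGTG, were present at 9 of 14 and at 56.6%. The NKX2-type letters TNAAGTG on either strand were present at 3 of 14, at Nkx2-2 and at Myt1 starts 1 and 3, and at 10.8% of all starts. Median GC content was 54.8% at the member starts and 56.3% at all starts. Base composition ranged within the list from 39.3% at Myt1 start 2 to 69.0% at Isl1.

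The first comparison asked how many accessible regions at these genes were found with both plasmids. A peak was called matched when it shared 1 bp or more with any peak of the other list, gained when it was in the Klf4 list only, and lost when it was in the empty vector list only. Of the 71 Klf4 peaks, 11 were gained, which is 15.5% with an exact 95% binomial interval of 7.996 to 26.0%, against 36.7% of the whole Klf4 list. Of the 69 empty vector peaks, 11 were lost, which is 15.9% (exact interval 8.24 to 26.7%), against 18.8% of the whole empty vector list. The lost share was therefore close to that of its list, and the gained share was below that of its list. With the 50000 strongest peaks of each list, which makes the lists equally long, 9 of 38 Klf4 peaks were gained (23.7%) against 24.5% of the list, so this difference was not present there. Peaks of 1 gene are not independent, and the intervals cover counting error only.

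**Figure D1:**
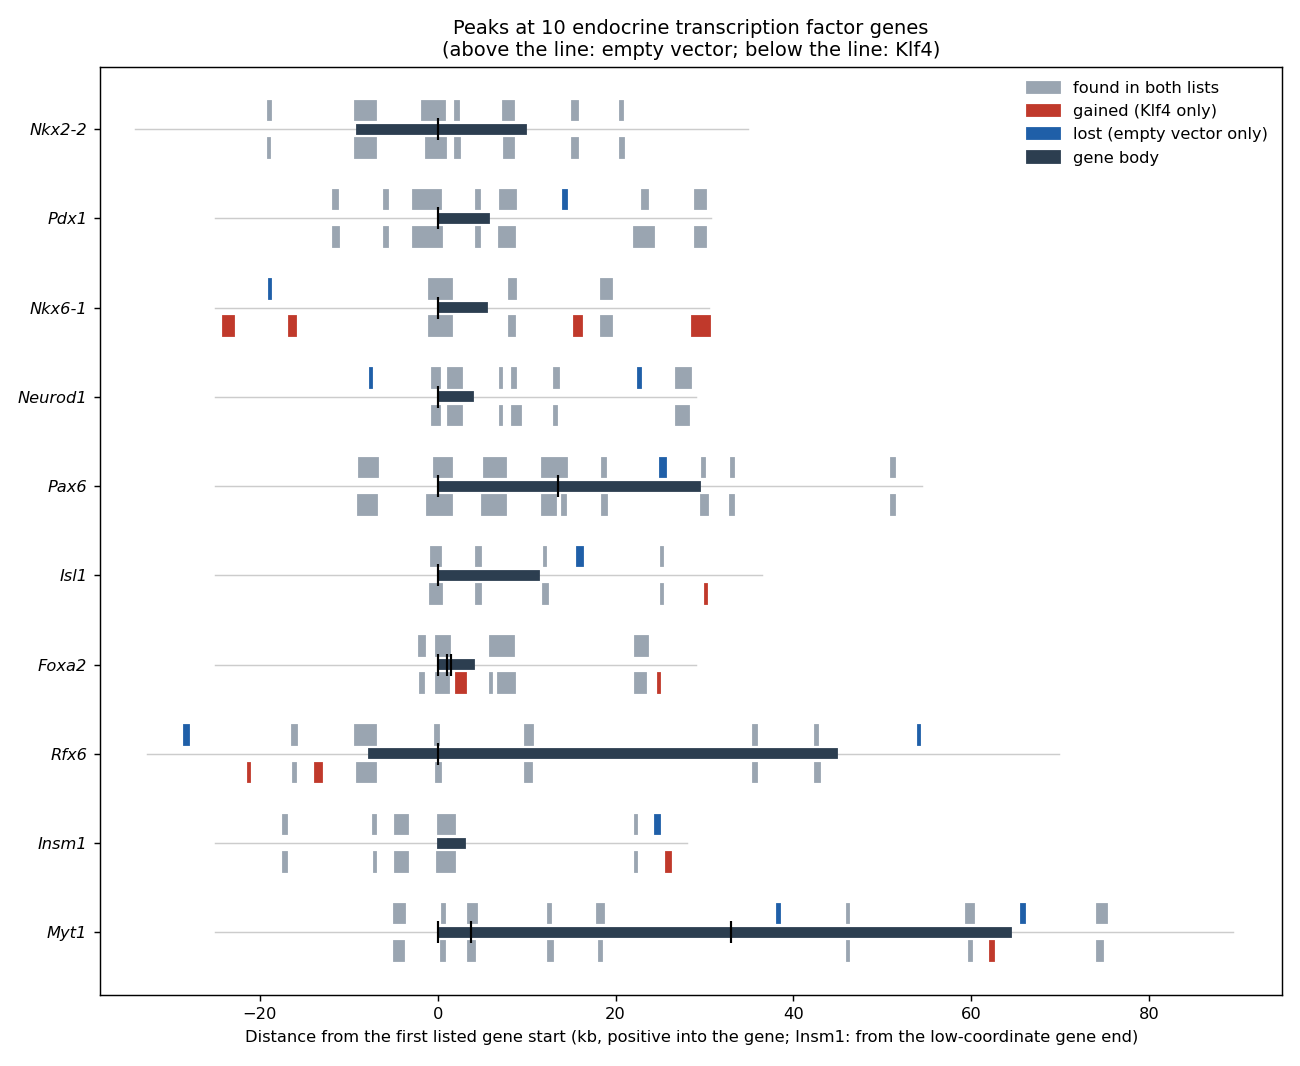
Peaks at the 10 genes, drawn by distance in kb from the first listed start along the gene, with empty vector peaks above each line and Klf4 peaks below it. Thin lines are the gene body with 25 kb on both sides, black ticks are listed starts (Insm1 has none and is drawn from its gene end of lower coordinate), and colours mark matched, gained and lost peaks. Nkx2-2 has no unmatched peak, and Nkx6-1 holds 4 of the 11 gained peaks.

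Unmatched peaks were spread over 9 genes. Gained peaks lay at 6 of the 10 genes, Nkx6-1 with 4, Foxa2 and Rfx6 with 2 each, and Isl1, Insm1 and Myt1 with 1 each, while 72.3% of all protein-coding genes had at least 1 gained peak in the same kind of window. Lost peaks lay at 8 genes, Neurod1, Rfx6 and Myt1 with 2 each and Pdx1, Nkx6-1, Pax6, Isl1 and Insm1 with 1 each, while 49.7% of protein-coding genes had at least 1. Of the 19282 protein-coding genes with a peak in either list, 15822 had a gained peak and 10874 a lost one. At Nkx2-2 all 7 peaks of each list were matched, and 10.3% of the protein-coding genes with a peak in either list likewise had neither kind.

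Over all 10 windows together the empty vector peaks covered 65755 bp and the Klf4 peaks 69834 bp, a ratio of 1.06. The same ratio over the windows of all protein-coding genes, some of which overlap, was 1.32. Of the length covered, 55169 bp lay under peaks of both lists, which is 83.9% of the empty vector length and 79.0% of the Klf4 length. Leaving out Nkx6-1, the ratio was 0.994. Each gene was then given a log2 ratio of its covered lengths, Klf4 over control, after 500 bp were added to both. The median over the 10 genes was 0.0049, with 5 genes above 0 and 5 below. Over all protein-coding genes it was 0.21, with 67.8% above 0 and 20.2% below. Over the 19282 with a peak in either list, as all 10 members have, it was 0.28, with 77.0% above 0 and 22.9% below. Only Nkx6-1 passed a 1.5-fold difference, upward, as did 23.0% of protein-coding genes and 26.1% of those with a peak. Downward, 0 members passed it, beside 1.54% of protein-coding genes.

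**Figure D2:**
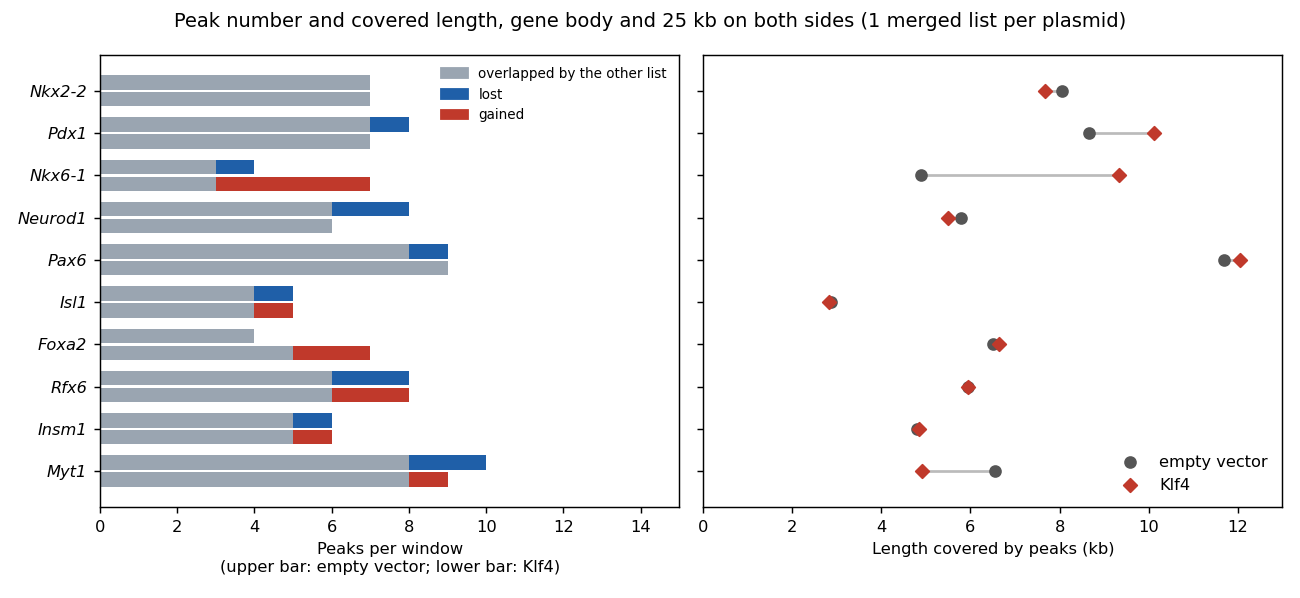
Left, peaks in the window of each gene, with the empty vector as the upper bar and Klf4 as the lower bar, split into matched, lost and gained peaks. Right, the length in kb covered by peaks in each list, 1 value per plasmid. Covered length differs visibly at Nkx6-1, Pdx1 and Myt1 and little at the other 7 genes.

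**Figure D3:**
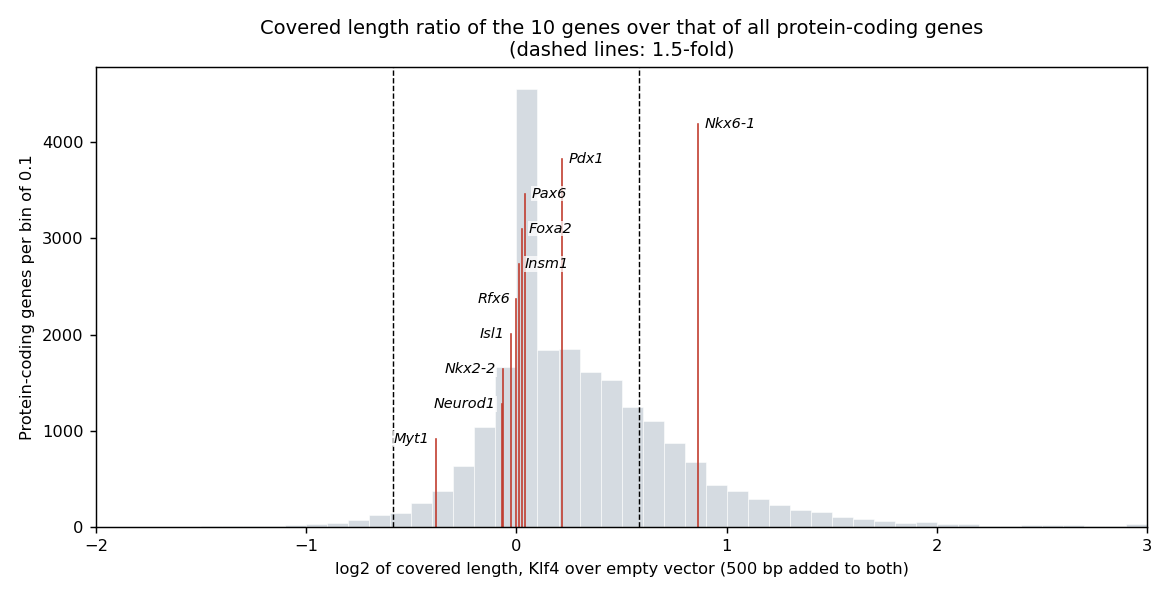
Histogram of the log2 ratio of covered length, Klf4 over empty vector, for 21883 protein-coding genes in bins of 0.1, with the 10 genes as labelled lines of arbitrary height. The bin that starts at 0 includes 2622 genes with a ratio of exactly 0, mostly genes without a peak in either list. Nkx6-1 is the only one of the 10 beyond the dashed 1.5-fold lines.

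Nkx6-1, a homeodomain factor of the beta cell program on chromosome 5, had the largest difference of the list. The empty vector list had 4 peaks covering 4900 bp and the Klf4 list had 7 peaks covering 9338 bp, or 8.82% and 16.8% of the window (log2 ratio 0.87). The 4 gained peaks were 5018 bp long in all, beside a difference in covered length of 4438 bp. Each peak carries a −log10 q, the authors' measure of how far it exceeded the local background, higher for stronger peaks. The gained peaks lay at chr5:101634061-101636167 (2107 bp, −log10 q 12.1), chr5:101648482-101649357 (876 bp, 4.53), chr5:101680617-101681498 (882 bp, 13.5) and chr5:101687677-101688829 (1153 bp, 3.93). None of them touched a gene body of the table. The first pair lay 28.5 and 15.4 kb from the start on the downstream side, and the second pair at −15.9 and −23.0 kb, the minus marking the upstream side. The lost peak, chr5:101683491-101683728 with a −log10 q of 7.85, lay 1992 bp from the gained peak at 101680617. Nearer the gene the lists were alike: the peak over the start was 2597 bp wide for the control and 2618 bp for Klf4, and with 10 kb in place of 25 kb on both sides the log2 ratio was −0.0030. With peaks of a −log10 q of at least 5 in both lists it was 0.53, under the 1.5-fold limit. The strongest peak was the one over the start with the empty vector (−log10 q 73.8) and chr5:101656058-101656669 with Klf4 (70.8).

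Pdx1, which binds the insulin promoter and is needed for the pancreas to form, is on the same chromosome, with the lncRNA gene Plut beside it. It had 8 empty vector peaks covering 8649 bp and 7 Klf4 peaks covering 10128 bp (log2 ratio 0.22). The covered length was higher with Klf4, although the only unmatched peak was a lost one, chr5:147284206-147284612, with a −log10 q of 2.26. The matched peak that differed most in width, 22.0 kb downstream of the start in the Klf4 list, was 691 bp wide with the empty vector, chr5:147293019-147293709, and 2246 bp wide with Klf4, chr5:147292134-147294379. The peak over the Pdx1 start was the widest at any of the 10 genes in both lists (3164 bp for the control and 3183 bp for Klf4) and began at −2770 and −2752 bp from the start. The strongest peak of the 10 genes also lay here, at chr5:147299060-147300233 with a −log10 q of 161 and rank 2366 in the empty vector list, and at chr5:147299046-147300228 with 147 and rank 1682 in the Klf4 list. It touched no gene body and lay 29.0 and 28.9 kb downstream of the start. With 10 kb on both sides, which leaves out both of these distal regions, the log2 ratio was −0.04.

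Nkx2-2, the homeodomain factor of the series title, had 7 peaks in each list. They covered 8060 bp in the control list and 7678 bp in the Klf4 list (log2 ratio −0.07), and 7312 bp lay under both, the highest Jaccard index of the 10 genes at 0.868. The peak over the listed start was 2666 bp wide for the control and 2289 bp for Klf4, with −log10 q values of 6.91 and 5.31, below the median of each list. The strongest peak with each plasmid was instead the one over the upstream end of the gene body, which ended at −6.98 kb from the listed start with the empty vector (2340 bp, −log10 q 41.5) and at −6.97 kb with Klf4 (2360 bp, 23.8). Of the 7 empty vector peaks, 4 touched the antisense-named lncRNA gene Nkx2-2os, and peaks over both genes cannot be assigned to 1 of them.

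Neurod1 had 8 empty vector peaks covering 5790 bp and 6 Klf4 peaks covering 5504 bp (log2 ratio −0.07). The lengths differed by 286 bp, and the 2 lost peaks made up 524 bp. The lost peaks were 310 and 214 bp wide with −log10 q values of 2.62 and 2.14, at percentiles 15.99 and 11.4 of the empty vector list. The peak over the start was 814 bp wide for the control and 813 bp for Klf4, both from the same lowest base, chr2:79456425. It was the strongest at this gene in each list, with −log10 q values of 85.7 and 66.2. A second strong region, 26.8 kb downstream of the start, touched the neighbouring gene Cerkl (−log10 q 33.6 with the empty vector and 50.8 with Klf4).

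Pax6 had 9 peaks in each list and the largest covered length of the 10 genes, 11694 bp in the control list and 12056 bp in the Klf4 list (log2 ratio 0.04). Of its 7 peaks that matched 1 to 1, all 7 were wider with Klf4, by ratios of 1.00 to 1.85, while 46.9% of 79834 such pairs in the whole lists were wider with Klf4. The first start was covered in both lists. The second start, 13.6 kb into the gene at position 105682463 of chromosome 2, was covered by an empty vector peak, chr2:105680656-105683393, but lay between the Klf4 peaks chr2:105680621-105682165 and chr2:105682854-105683349, 297 bp from the nearer one. The gap between this pair was 688 bp, and the smallest gap in the whole Klf4 list was 663 bp. The smallest gap between neighbouring peaks of the control list was 675 bp. Among the 21262 starts of protein-coding genes, 179 (0.842%) were covered with the empty vector only, and 1457 (6.85%) with Klf4 only. The strongest Pax6 peak lay 5.24 kb into the gene with the empty vector and 5.03 kb with Klf4 (chr2:105674137-105676565 with a −log10 q of 134 and chr2:105673922-105676595 with 102).

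Foxa2, whose protein opens chromatin for other factors, had 4 empty vector peaks covering 6497 bp and 7 Klf4 peaks covering 6629 bp (log2 ratio 0.03). The number was higher with Klf4 and the length nearly equal. As at Pax6, 1 peak of the control list was met by a pair of Klf4 peaks: the 2743 bp empty vector peak chr2:148038341-148041083 matched a pair of Klf4 peaks 691 bp apart. The 2 gained peaks were chr2:148022013-148022223, in the lncRNA gene 9030622O22Rik (211 bp, −log10 q 5.58), and chr2:148043772-148044872, in the Foxa2 body (1101 bp, −log10 q 1.61). The second was the weakest Klf4 peak at any of the 10 genes and lay 714 bp from an empty vector peak. Starts 1 and 2 were under 1 peak in each list, the strongest at this gene (−log10 q 32.2 with the empty vector and 30.0 with Klf4), and start 3 was 122 bp from the empty vector peak and 223 bp from the Klf4 peak.

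Isl1 had the smallest covered length, 2880 bp in the control list and 2817 bp in the Klf4 list, in 5 peaks each (log2 ratio −0.03). The peak over its start was strong within each list, in the top 3.10% of the empty vector list and the top 2.88% of the Klf4 list (−log10 q 143 and 107). Its gained peak was 172 bp wide with a −log10 q of 2.89, and its lost peak 641 bp wide with 1.76. Insm1, with 6 peaks in each list, covered 4797 bp in the control list and 4834 bp in the Klf4 list (log2 ratio 0.01). Its strongest peak touched the gene body in each list, with a width of 1919 bp and a −log10 q of 43.4 for the control, and 1970 bp and 36.5 for Klf4. Its lost peak, chr2:146246460-146246943 (−log10 q 2.79), and its gained peak, chr2:146247697-146248188 (−log10 q 12.8), lay 753 bp apart within the neighbouring gene Ralgapa2. Covered length at both genes was thus nearly equal in the 2 lists.

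Rfx6 had 8 peaks in each list covering 5943 bp in the control list and 5942 bp in the Klf4 list (log2 ratio −0.00022). Equal totals went with 2 gained peaks of 944 bp in all and 2 lost peaks of 815 bp. The gained peaks, 202 and 742 bp wide, had −log10 q values of 2.49 and 2.75. The stronger lost peak, chr10:51739519-51739733 (−log10 q 10.5), lay 11018 bp from any Klf4 peak, the longest such distance of the set. The start was covered in both lists (445 bp with the empty vector, 568 bp with Klf4), and so was the upstream end of the gene body, the strongest peak here (2305 bp and −log10 q 32.8 with the empty vector, 2205 bp and 42.0 with Klf4). With the 50000 strongest peaks of each list the log2 ratio was −0.62, past the 1.5-fold limit downward.

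Myt1, a zinc finger factor of endocrine and neural cells, was the gene with the largest difference downward. It had 10 empty vector peaks covering 6545 bp and 9 Klf4 peaks covering 4908 bp, a ratio of 0.7499 (log2 ratio −0.38), short of the 1.5-fold limit. The 2 lost peaks made up 631 bp and the gained peak, chr2:181825397-181825877 (−log10 q 11.0), 481 bp. Most of the difference lay in matched peaks, of which 5 of 8 were narrower with Klf4, beside 52.5% of such pairs in the whole lists: 366 against 801 bp, 276 against 856 bp and 618 against 1152 bp were the largest steps. Of its 3 listed starts only the second, 3.70 kb into the gene, was under a peak, in both lists, with −log10 q values of 85.3 and 74.0, the highest at this gene. The direction did not hold for the 50000 strongest peaks of each list, where the log2 ratio was 0.10. Start 1 was 502 bp from the nearest empty vector peak and 400 bp from the nearest Klf4 peak.

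The next comparison concerned the start sites. All 9 genes with listed starts had at least 1 start under a peak in each list, beside 59.4% of 17491 protein-coding genes with the empty vector and 65.2% with Klf4. Of the 14 starts, 10 were covered in both lists, 1 with the empty vector only (Pax6 start 2) and 3 in neither (Foxa2 start 3 and Myt1 starts 1 and 3). Peaks over a member start had a median width of 1848.5 bp with the empty vector (n = 10 peaks) and 1464 bp with Klf4 (n = 9). The medians of all peaks, on a start or not, were 539 and 510 bp. Widths of peaks over the starts of other genes are not given here, so a trait of these genes cannot be read from this. None of the 11 gained and none of the 11 lost peaks covered a start, and few unmatched peaks of the whole lists did (936 of 47185 gained and 58 of 18800 lost). Of the members' unmatched peaks, 2 of 11 gained and 2 of 11 lost ones touched a member's gene body. Of their matched peaks, 28 of 58 with the empty vector and 29 of 60 with Klf4 did. The share over the whole lists is not given here.

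Unmatched peaks were then counted by their distance from the nearest listed start of any protein-coding gene. For the 9 genes with listed starts, 0 of 10 Klf4 peaks on a start were gained and 0 of 11 empty vector peaks on one were lost, against 8.47% and 0.584% in the whole lists. Further, 1 of 26 Klf4 peaks within 10 kb of a start but not on one was gained (3.85%), and 9 of 29 farther than 10 kb (31.0%). In the whole Klf4 list the last 2 shares were 44.1% and 38.4%. Of the empty vector peaks, 3 of 25 (12%) and 7 of 27 (25.9%) were lost, against 18.7% and 21.1% in the whole list. The gained share was thus lower than that of the list near starts and nearer to it farther away, and no test was made on these small numbers.

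The unmatched peaks were mostly weak ones of their list, as unmatched peaks were in the lists as a whole. Gained peaks had a median −log10 q of 4.53 (1.61 to 13.5), and matched Klf4 peaks 11.8 (2.38 to 147). Lost peaks had a median of 2.44 (1.56 to 10.5), and matched empty vector peaks 15.7 (1.30 to 161). Over the whole lists the medians of unmatched peaks were similar, 4.75 for Klf4 and 2.63 for the empty vector. With a −log10 q of at least 5 there remained 5 gained peaks, 2 at Nkx6-1 and 1 each at Foxa2, Insm1 and Myt1, and 2 lost peaks, 1 each at Nkx6-1 and Rfx6. Below 5, 6 of 16 Klf4 peaks were gained (37.5%, exact interval 15.2 to 64.6%), against 55.5% of the list, and 9 of 18 empty vector peaks were lost (interval 26.0 to 74.0%), against 46.2%. With 20 or more, 0 of 22 Klf4 peaks were gained (exact interval up to 15.4%), where the whole list had 7.24%, and 0 of 27 empty vector peaks were lost (up to 12.8%), where it had 0.121%. From 5 to 10, 1 of 16 Klf4 peaks was gained (6.25%, exact interval 0.158 to 30.2%), against 41.6% of the list, and from 10 to 20, 4 of 17 (23.5%, interval 6.81 to 49.9%), against 29.8%. Of the empty vector peaks, 1 of 14 from 5 to 10 was lost (7.14%, interval 0.181 to 33.9%), against 14.1% of the list, and 1 of 10 from 10 to 20 (10%, interval 0.253 to 44.5%), against 2.83%. In each of the 4 classes the gained share was thus below that of the list. The list's value lay outside the interval from 5 to 10 and inside it in the other 3. These intervals cover counting error only and peaks of 1 gene are not independent, so they are not a test of any class. These −log10 q values are the authors', and they were compared within a list, since the depth behind each list is unknown.

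**Figure D4:**
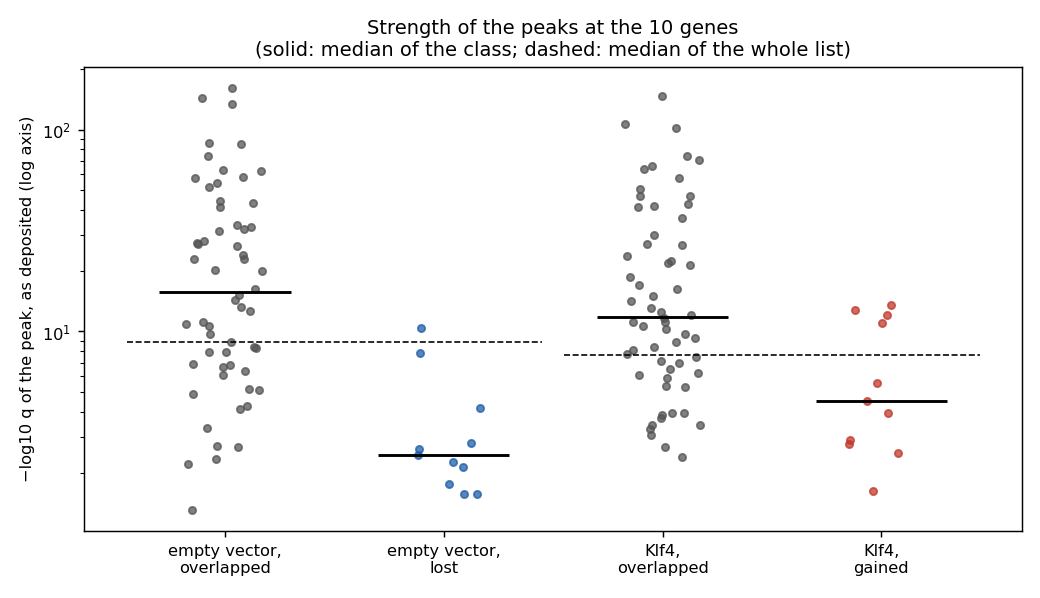
The deposited −log10 q of each peak at the 10 genes on a log axis, by list and by whether a peak of the other list overlapped it. Solid lines are medians of a class and dashed lines the median of the whole list, 8.82 with the empty vector and 7.61 with Klf4. Of the 11 lost peaks 1 lies above the dashed line, and of the 11 gained peaks 4 do.

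The peaks at these genes included more wide ones than the lists as a whole. Of the 69 empty vector peaks, 10 (14.5%) were at least 2000 bp wide, against 1.61% of the list, and of the 71 Klf4 peaks 10 (14.1%), against 2.01%. They lay at Nkx2-2, Pdx1, Nkx6-1, Pax6, Foxa2 and Rfx6 with the empty vector, and with Klf4 at the same genes except Foxa2. Median fold enrichment over the caller's local background was by contrast slightly below the list's, 3.84 against 4.24 with the empty vector and 3.71 against 3.92 with Klf4. Peaks covered a median of 9.88% of the windows of the 10 genes with the empty vector and 10.7% with Klf4, against 4.37% and 5.54% over all protein-coding genes. The median width ratio of the 56 pairs that matched 1 to 1, Klf4 over empty vector, was 1.00, beside 0.991 in the whole lists, and 5 pairs (8.93%) differed at least 2-fold, beside 12.4%. The 5 were 1 each at Pdx1, Neurod1 and Isl1, wider with Klf4, and 2 at Myt1, narrower with it.

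For the rest of the network, a list of 20 other islet and pancreatic transcription factor genes was measured the same way. Their peaks covered 124490 bp in the control list and 155939 bp in the Klf4 list, a ratio of 1.25, and 87 of 220 Klf4 peaks (39.5%) were gained and 40 of 169 empty vector peaks (23.7%) lost, near the 36.7% and 18.8% of the whole lists. The median log2 ratio was 0.33, and 8 of 20 genes passed the 1.5-fold limit upward, beside 23.0% of protein-coding genes, and 0 downward. They included Lmx1b (5897 to 21148 bp, with 20 gained peaks), a LIM homeodomain factor, Foxa1 (2231 to 5035 bp), the forkhead relative of Foxa2, Onecut1 (2604 to 4963 bp), Neurog3 (3105 to 5756 bp), the factor of endocrine progenitors, Nkx6-2 (3998 to 6621 bp), the relative of Nkx6-1, Hnf4a (6787 to 10976 bp), a nuclear receptor, and Sox9, a factor of progenitors and ducts. For Sox9 the control list held no peak, so that no fold is given, and the Klf4 list held 5, covering 2834 bp. Covered length was thus higher with Klf4 at 16 of these 20 genes, at 5 of the 10 members and at 77.0% of all protein-coding genes with a peak in either list, and the difference between these lists of genes was not tested.

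As a check of the label, 5 of 8 beta cell marker genes had a listed start, and 4 of these starts (Ins1, Iapp, G6pc2 and Pcsk1) were under a peak in each list. That of Slc2a2 was not in either. Among all protein-coding genes with a listed start, 59.4% had one covered with the empty vector and 65.2% with Klf4. All 8 had peaks in their windows with both plasmids, from 1845 to 10123 bp with the empty vector. Of the markers of other cells with a listed start, 0 of 3 for delta and PP cells, 0 of 2 for stromal and 0 of 2 for immune cells had it covered with either plasmid. Starts were covered for 1 of 4 acinar, 1 of 2 alpha and 0 of 1 ductal genes with the empty vector, and for 2 of 4, 2 of 2 and 1 of 1 with Klf4. Median covered length per gene, control first and Klf4 second, was 5632 and 6274 bp for beta, 2971 and 2257 bp for alpha, and 2194 and 2939 bp for delta and PP cell genes. It was 2277 and 4993.5 bp for acinar, 218 and 2834 bp for ductal, 3567 and 5797 bp for stromal, and 932 and 1199 bp for immune cell genes. Accessibility of a start is not expression, and whether other cells had a part in the peaks was not tested.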

How the data were processed

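Peaks were called with MACS2, per the labels and the submitters' processing notes, which also name Bowtie2, FastQC, DiffBind and the build mm10. Options and versions are not given in the sources used here, nor is whether merging of the 4 libraries came before or after calling. The lists hold, as the authors deposited them, the fold enrichment of a peak (a ratio over local background), its p-value and q-value as −log10, and a score that is 10 times the −log10 q. Peaks on scaffolds (165 with the empty vector and 188 with Klf4) were left out. Gene bodies and starts came from RefSeq tables of GRCm38.p6, the assembly of mm10, matched by symbol. The tables hold no exons.

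Peaks touching a gene body and 25 kb on both sides were counted, covered bp were clipped to this window, and 500 bp were added before log2. Named items were the 10 genes, the strongest and start peaks of each, gained and lost peaks with a −log10 q of at least 5, and those of the 20 other genes past 1.5-fold, of which 1 is not reported here. Weaker peaks and pairs of unequal width were named after their values were seen. Members and lists were chosen with earlier results of these data known. Alternatives were windows of 10 and 50 kb, a −log10 q of at least 5, the top 50000 peaks, an overlap of 50%, 100 bp added and peaks of at least 300 bp. The counting was tested on simulated data, where 200 of 200 windows gave every count and length. The tools were matplotlib 3.10.9, scipy 1.17.1, pandas 2.3.3 and numpy 2.4.6 under Python 3.11.15.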

Additional observations from a re-analysis of the deposited data

How the results depend on the processing

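No paired analysis was possible because each plasmid has a single merged list, and for the same reason no library could be left out. Shares count as moved outside their interval, ratios by over 5%, log2 ratios by over 0.1 and counts by over 1.5 times. Of 96 values under alternatives, 67 stayed within these limits, 26 moved and 3 changed direction, not counting sign changes of log2 ratios that had not passed 1.5-fold. The median log2 ratio, 0.0049, was below 0 under 3 of its 7 alternatives. With 10 kb windows the gained share was 7.55%, against 36.7% of the whole list, and the covered length ratio was 0.982. There 0 genes passed 1.5-fold, beside 21.1% of protein-coding genes upward and 1.51% downward. Nkx6-1 was at −0.0030, since 3 of its 4 gained peaks lie outside this window and the fourth only reaches over its edge. With a −log10 q of at least 5 in both lists 0 genes passed, beside 20.2% of protein-coding genes upward and 1.85% downward. With the top 50000 peaks 3 did, Nkx6-1 (0.60), Pdx1 (0.68) and, downward, Rfx6 (−0.62), beside 10.7% of protein-coding genes upward and 4.87% downward. There the gained share was 23.7% (9 of 38; whole list 24.5%) and the lost share 25.6% (10 of 39; whole list 24.5%), and the cause was not tested. In 2 alternatives added after seeing the data, the lost share was 3.92% for peaks with a −log10 q of at least 5 matched against the whole other list (2 of 51; whole list 5.09%), where the gained share was 9.09% (5 of 55; whole list 26.8%), and without Nkx6-1 the ratio was 0.994 and 0 genes passed. Gene values ranged most at Nkx6-1 (−0.0030 to 0.93), Pdx1 (−0.04 to 0.68) and Rfx6 (−0.62 to 0.09). Read depth and the number of weak peaks called limit every count here.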
